A study of Rattus norvegicus with 5 samples.

Results

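Adjacent deep zones of the mandibular condylar cartilage (MCC), the mature zone (MZ) and the hypertrophic zone (HZ), were compared by subtracting the HZ array from the MZ array for all 31042 probe sets other than controls. A probe set is a group of short probes for 1 transcript, and these 2 arrays are 2 of 5 in all. Cells were taken by laser-capture microdissection from 7 µm frozen sections of 5-week-old male wild-type Sprague-Dawley rats. MZ and HZ held mature and hypertrophic chondrocytes, while the other arrays held the fibrous zone (FZ) and the proliferative zone (PZ) of the MCC and the femoral condylar cartilage (FCC), its middle and deep zones, which the study used as control. The labels give lysates of 30 sections pooled into 1 sample for each group and do not say from how many rats. For FZ, however, the study's methods give a larger number of pooled sections than the labels do. RNA went through 2 rounds of linear amplification before hybridization to an Affymetrix rat genome array. With 1 array for MZ and 1 for HZ, no difference below has a replicate check and no test was possible. The study also measured a few genes in all groups by quantitative PCR, among them Ucma, Car9, Fam180a, Cmtm5 and Snorc (as RGD1311447). It described the patterns of most, but not all, of the genes it tested as comparable with the arrays.

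In the MCC, cells pass from the fibrous surface through proliferation to maturity and then enlarge, as in other cartilages that turn into bone. Mature chondrocytes deposit a matrix of type II and type IX collagens and aggrecan. Hypertrophic chondrocytes make type X collagen, mineralize their matrix and lie against the front where vessels and marrow enter, so blood cells and bone cells are their neighbours.

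The deposited log2 values were set to 0 at the middle array of the 5 for every probe set. They give differences between arrays and neither an expression level nor how far a signal stood above background. A difference of 2 is 4-fold and a difference of 1 is 2-fold, and every difference is MZ minus HZ on the log2 scale. The number of arrays limits their precision. The only spread at hand is that between probe sets of 1 gene, whose SD for this difference had a median of 0.12 over 4525 genes, and it is no replicate error. The 18 hybridization controls averaged −0.02 in MZ and −0.03 in HZ, with differences between −0.08 and 0.10. The 5′ minus 3′ value, which falls when RNA is degraded, for beta-actin was −0.10 in MZ and −0.24 in HZ, but that for GAPDH was −0.13 in MZ and 0.27 in HZ.

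MZ and HZ were the most alike of the 10 pairs of arrays, and more probe sets stood well above HZ in MZ than well below it. In all, 46 probe sets (0.148%) were at least 2 higher in MZ and 3 (0.00966%) at least 2 lower. The other 9 pairs, which share arrays with this one, had from 189 to 1101 probe sets at least 2 apart, against 49 here. At a difference of 1, 247 probe sets (0.796%) were higher in MZ and 103 (0.332%) lower. The middle 50% of probe sets differed by −0.08 to 0.13, the 99th percentile was 0.91 and the 1st was −0.73, so the upper tail was the longer. All 9 probe sets that differed by at least 3 were higher in MZ.

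**Figure D1:**
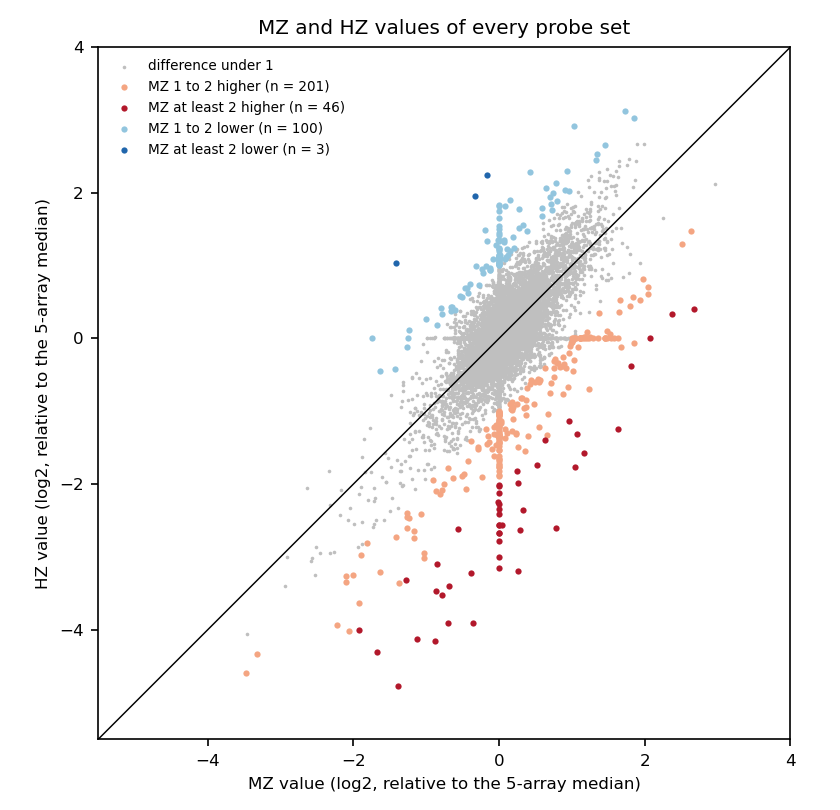
Value of every probe set in MZ (horizontal) and HZ (vertical), both on the log2 scale relative to the median over the 5 arrays, with 1 point per probe set and the line of equal values. The 46 red points, at least 2 higher in MZ, lie below the line, and the 3 dark blue points, at least 2 lower in MZ, lie above it.

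The largest difference was that of Ucma, a secreted matrix protein of the upper growth plate that binds calcium. Ucma lay at −0.36 in MZ and −3.90 in HZ, with 0.32 in FZ, 0.00 in PZ and 1.67 in FCC, a difference of 3.54. Clec3a, a lectin of cartilage, lay at 0.26 in MZ and −3.19 in HZ, with −5.90 in FZ, 0.00 in PZ and 3.02 in FCC, a difference of 3.45. HZ was thus the lowest array for Ucma, whereas FZ was lower still for Clec3a. The cartilage oligomeric matrix protein Comp, which binds collagen fibrils, lay at 0.29 in MZ and −2.63 in HZ (difference 2.92), with FZ at −2.33. Hapln1, which links aggrecan to hyaluronan, had 3 probe sets that differed by 2.42, 2.34 and 2.28, and it was the only gene past 2 with several probe sets that all passed. Matn2, a matrilin, lay at −1.68 in MZ and −4.30 in HZ (2.63), so that both deep zones were under FZ, PZ and FCC.

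Among 21 measured hyaline matrix genes, each given as the mean over its probe sets, 13 lay at least 1 higher in MZ (0.907% of all 14217 genes) and 0 lay at least 1 lower (0.204% of all genes). At a difference of 0.5, 17 of the 21 were higher in MZ (3.32% of all genes). The median of the list was 1.66, against 0.01 for all genes, and its median value was 0.11 in MZ and −1.05 in HZ. The study's tables name 5 of the 21 genes for these zones or for differences between zones, so the list is not independent evidence, and without them 8 of 16 were at least 1 higher and the median was 1.16. Among these 8, Col9a2, Col9a3, Mia, Scrg1 and Snorc (as RGD1311447) are named elsewhere in those tables, for FZ, FCC or zones against FCC. They are thus not independent of the study either. The 3 chains of type IX collagen, which coats type II fibrils, were all among those higher in MZ. Col9a1 lay at 0.66 in MZ and −1.33 in HZ (1.99), Col9a2 at 0.37 in MZ and −1.05 in HZ (1.42), and Col9a3 at 0.00 in MZ and −1.66 in HZ (1.66). Acan, the core protein of aggrecan, lay at −0.44 in MZ and −1.87 in HZ, and its 2 probe sets differed by 1.61 and 1.25. Cnmd, an inhibitor of vessel growth in cartilage, lay at 2.08 in MZ and 0.00 in HZ.

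Col2a1, the main fibrillar collagen of cartilage, differed less than type IX collagen and aggrecan. Its mean was 0.49 in MZ and −0.22 in HZ, and its 3 probe sets differed by 0.90, 0.73 and 0.49. The fibril collagens Col11a1 (0.23 in MZ and 0.23 in HZ) and Col11a2 (0.11 in MZ and 0.00 in HZ) differed by 0.00 and 0.11. Matn1, another matrilin, lay at −0.05 in MZ and 0.00 in HZ. The hyaline list was therefore not lower in HZ throughout. Matn3 has no entry in the platform annotation, but the study's tables pair a probe set with it, and this one lay at 1.11 in MZ and 0.00 in HZ.

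Small leucine-rich proteoglycans, which bind collagen fibrils and set their width, held 3 of 13 members at least 1 higher in MZ (0.907% of all genes) and 0 at least 1 lower (median 0.31). For differences between MCC zones the study's tables name Aspn and Fmod, and without these 1 of 11 was at least 1 higher and the median was 0.20. That 1 was Prelp, which the study's table of zones against FCC names, so it is not independent of the study either. Fmod lay at −1.12 in MZ and −4.12 in HZ. Aspn, which also binds growth factors of the TGF-beta family, lay at 0.00 in MZ and −2.25 in HZ, with 2.87 in FZ and 2.64 in PZ, and its 2 probe sets differed by 2.68 and 1.81. Prelp lay at −1.17 in MZ and −2.73 in HZ (1.57). A further probe set that the study's tables name LOC100363743, a Prelp-like gene, lay just under the limit at 1.99. Lum (0.00 in MZ and 0.00 in HZ), Dcn (0.08 in MZ and 0.06 in HZ) and Bgn (0.00 in MZ and −0.31 in HZ), the abundant members of the family, differed by 0.31 at most.

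Genes of tendon and fibrous tissue, which mark the surface side of the MCC, split. Of 28 members, 6 were at least 1 higher in MZ (0.907% of all genes) and 1 was at least 1 lower (0.204% of all genes), with a median of 0.30. The study's tables name 9 of the 28, and without them 2 of 19 were at least 1 higher and the median was 0.051. Fndc1 lay at −0.71 in MZ and −3.91 in HZ (3.20), with 3.36 in FZ and 2.52 in PZ. Dpt, which helps collagen fibrils assemble, lay at −0.54 in MZ and −2.50 in HZ (1.95), and Postn, a protein of fibrous tissue under load, at 0.00 in MZ and −1.77 in HZ (1.77). For these genes the order was one of surface over MZ over HZ. Tnmd, the tendon marker that was highest in FZ at 5.29, did not follow it, at −0.37 in MZ and −0.35 in HZ. Mfap5, a microfibril protein, ran the other way, at −1.43 in MZ and −0.43 in HZ. Crabp1, a retinoic acid binding protein outside the list, lay at 0.00 in MZ and −2.56 in HZ, with 4.89 in FZ and 2.51 in PZ.

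**Figure D2:**
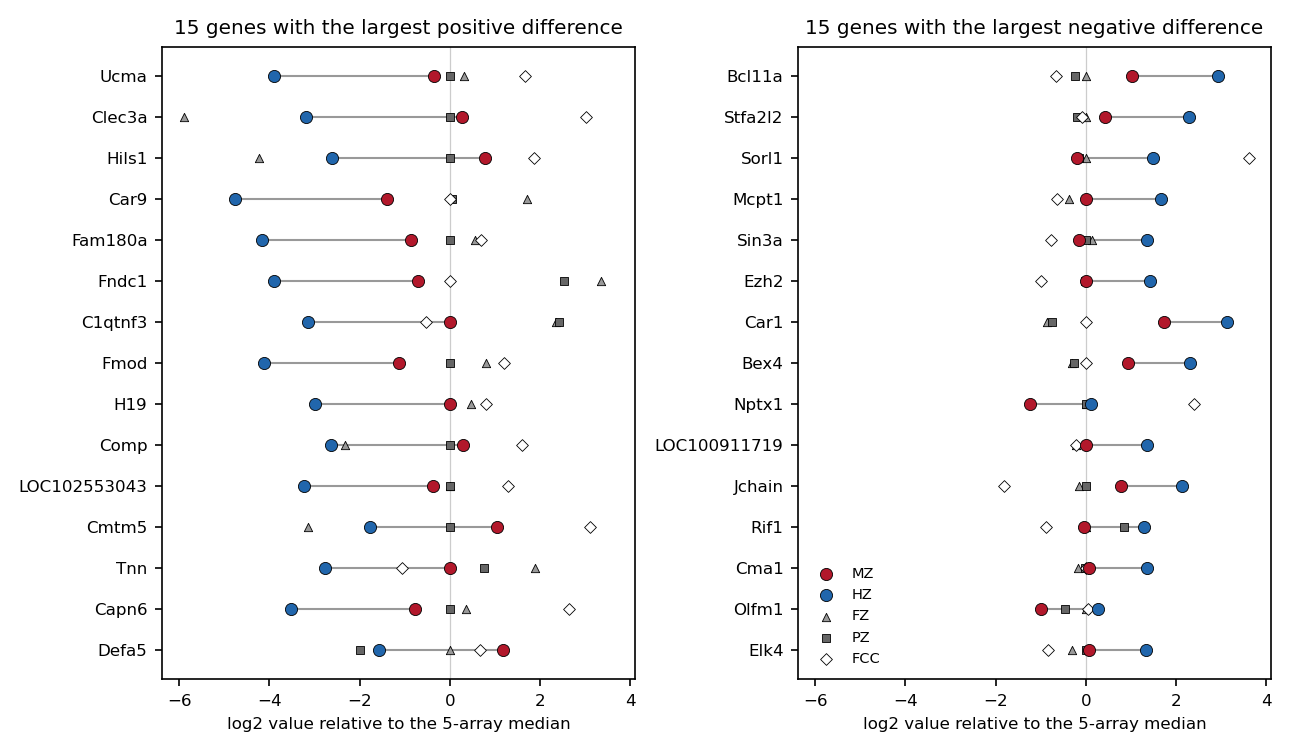
Log2 values relative to the 5-array median (horizontal) of the 15 genes with the largest positive (left) and negative (right) MZ minus HZ difference, by the probe set with the largest difference, with 1 symbol per array and a bar joining MZ and HZ. On the left HZ lies 2.74 to 3.54 under MZ. On the right HZ lies 1.25 to 1.89 above MZ and is the highest array for all but Sorl1 and Nptx1.

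At the larger size the zone that stood apart was mostly HZ. Of the 46 probe sets at least 2 higher in MZ, HZ was the lowest of the 5 arrays for 32, by at least 1 for 27, while MZ was the highest for 5. MZ lay nearer than HZ to the median of FZ, PZ and FCC for 41 of the 46, against 58.3% of all 15551 probe sets higher in MZ by any amount. A fall at each step, with FZ at or above PZ, PZ at or above MZ and MZ above HZ, was seen for 20, against 1829 of those 15551. The 46 were chosen by the same MZ and HZ values, so these counts are descriptions. Of the 247 probe sets at least 1 higher in MZ, HZ was the lowest array for 151 and MZ the highest for 59 (23.9%), against 26.1% over all probe sets higher in MZ by any amount. Of the 103 probe sets at least 1 lower in MZ, HZ was the highest array for 90, by at least 1 for 54, and MZ the lowest for 20. Over all probe sets that were lower in MZ by any amount, HZ was the highest for 41.6%, and over all that were higher in MZ, HZ was the lowest for 42.1%.

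The 5 probe sets past 2 for which MZ was the highest array include Mmrn1, Tubb1, Defa5 and Np4, genes of platelets and of granulocyte granules. Defa5, an antimicrobial peptide of granules, lay at 1.17 in MZ and −1.57 in HZ (2.74), with 0.00 in FZ, −1.99 in PZ and 0.66 in FCC. Np4, a neutrophil defensin, lay at 1.08 in MZ and −1.32 in HZ (2.39), with −2.07 in PZ. A probe set of a further defensin, RatNP-3b, lay at 0.94 in MZ and −0.67 in HZ (1.61), with −1.44 in PZ. All 3 were thus low in HZ and in PZ, and since defensins are close copies of each other, their probe sets may not measure separate genes. Apart from Np4, no gene of the list of 11 neutrophil genes was at least 1 apart. Over all genes 0.907% were at least 1 higher and 0.204% at least 1 lower. S100a9 lay at 1.25 in MZ and 1.09 in HZ, Camp at 1.01 in MZ and 0.67 in HZ, and Lcn2 at 0.94 in MZ and 1.12 in HZ.

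Car9, a membrane carbonic anhydrase that is induced by low oxygen, had the lowest HZ value of the 46. Car9 lay at −1.39 in MZ and −4.77 in HZ (3.37), with 1.71 in FZ, 0.04 in PZ and 0.00 in FCC. Ndufa4l2, a mitochondrial protein that is also induced by low oxygen, lay at −0.69 in MZ and −3.40 in HZ (2.71). Ndufa4l2 is not in the list of low-oxygen genes and was named after its value was seen. Of the 23 members of that list, Car9 was the only 1 at least 1 higher and 0 were at least 1 lower (median 0.23), with Bnip3, a mitophagy receptor, at −0.90 in MZ and −1.76 in HZ and Vegfa, the main vessel growth factor, at −0.07 in MZ and −0.56 in HZ. In glycolysis 2 of 16 members were at least 1 higher (0.907% of all genes). These were the aldolase Aldoc (0.00 in MZ and −1.37 in HZ) and the lactate exporter Slc16a3 (−1.07 in MZ and −2.41 in HZ). The median of this list was 0.13, and that of 54 oxidative phosphorylation genes was −0.04 with a range of −0.26 to 0.26.

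Promoters of a matrix gene and a low-oxygen gene, both among the 15 with the largest differences, are printed to give their sequence context. They come from RefSeq (GRCr8), hold 250 bases before and 50 after the annotated start, and run 5′ to 3′ on the strand of the gene. Of the 30 genes with the largest differences, 24 have a promoter in this table. Capitals mark TGTGGT, the core bound by RUNX factors, in Ucma and ACGTG, the core of hypoxia response elements, in Car9, searched on both strands. Ucma is at chr17:78212947-78213246 (minus strand) and Car9 at chr5:62558774-62559073 (plus strand).
Ucma: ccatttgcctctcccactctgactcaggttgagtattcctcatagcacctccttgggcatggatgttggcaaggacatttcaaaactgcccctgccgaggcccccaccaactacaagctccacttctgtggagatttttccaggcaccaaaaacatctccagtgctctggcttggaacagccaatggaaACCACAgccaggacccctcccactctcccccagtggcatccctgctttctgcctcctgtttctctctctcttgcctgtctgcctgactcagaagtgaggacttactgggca
Car9: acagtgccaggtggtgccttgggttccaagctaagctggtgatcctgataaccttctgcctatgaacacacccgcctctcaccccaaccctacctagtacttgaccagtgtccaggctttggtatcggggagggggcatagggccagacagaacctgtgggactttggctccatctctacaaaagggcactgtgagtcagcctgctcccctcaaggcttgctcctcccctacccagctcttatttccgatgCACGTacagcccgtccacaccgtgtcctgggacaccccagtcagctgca
The match in Ucma reads on the opposite strand and begins at −61 from the start, and TGTGGT is in 17.3% of all 33469 promoters of this length. The match in Car9, also on the opposite strand, begins 1 base after the start, and ACGTG is in 19.3% of promoters. The motifs printed here and below were chosen after the values were seen, and a match is a description of letters and not a bound site.

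Hedgehog signalling held a ligand and a target among the genes higher in MZ. Ihh, the signal sent by chondrocytes that are about to enlarge, lay at 1.23 in MZ and 0.00 in HZ, with −1.22 in FZ, −0.45 in PZ and 1.81 in FCC. Gli1, a transcription factor that is itself switched on by hedgehog signalling, lay at −0.02 in MZ and −2.24 in HZ (2.23), with 0.85 in FZ, 0.00 in PZ and 0.79 in FCC. The target was thus low in HZ alone, while the ligand was low in FZ, PZ and HZ against MZ and FCC. The other members of the list were less than 0.50 apart, among them the receptor part Smo (−0.18 in MZ and −0.25 in HZ), the inhibitor Hhip (−0.67 in MZ and −0.75 in HZ) and Gli2 (0.00 in MZ and −0.47 in HZ). Pth1r, the receptor for the PTHrP signal that holds back enlargement, lay at 0.32 in MZ and 0.23 in HZ.

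Markers of hypertrophy were not higher as a group in the array labelled hypertrophic than in MZ. Of 21 measured genes of chondrocyte hypertrophy and mineralization, 0 were at least 1 lower in MZ, near the share over all genes (0.204%). Only 1, Ihh, was at least 1 higher (0.907% of all genes). The median was 0.15, and 14 of 21 were higher in MZ by any amount (53.2% of all genes). Col10a1, the defining collagen of hypertrophic cartilage, lay at 0.62 in MZ and 0.37 in HZ, with −2.73 in FZ, −1.61 in PZ and 0.00 in FCC. Both deep zones were thus above FZ and PZ, and they were 0.26 apart. Alpl, the alkaline phosphatase of mineralizing cells, lay at 1.47 in MZ and 0.81 in HZ. Mmp13, a collagenase of late hypertrophy, lay at 0.33 in MZ and 0.37 in HZ, Spp1, osteopontin, at 0.97 in MZ and 1.13 in HZ, and Ibsp, bone sialoprotein, at 0.42 in MZ and 0.27 in HZ. Among 15 osteoblast and osteocyte genes 1 was at least 1 lower in MZ (0.204% of all genes). This was Phex, a membrane protease of osteocytes, at 0.59 in MZ and 1.68 in HZ. Of 11 osteoclast genes 0 were at least 1 apart, near the share over all genes. Acp5 lay at 0.73 in MZ and 0.81 in HZ and Car2 at 1.03 in MZ and 1.87 in HZ.

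Some regulators of growth and differentiation were also lower in HZ. Cdkn1c, a cell cycle inhibitor expressed as chondrocytes leave the cycle, lay at 0.00 in MZ and −1.87 in HZ. Foxa2, a transcription factor of hypertrophic differentiation, lay at 0.08 in MZ and −1.37 in HZ, with −4.43 in FZ. H19, an imprinted RNA that is not translated, lay at 0.00 in MZ and −3.00 in HZ. Its neighbour Igf2, a growth factor, was higher in MZ by 1.08 on 1 probe set (−0.70 in MZ and −1.78 in HZ), while its other 3 differed by 0.05 at most. Igfbp3, a binding protein of these factors, ran the other way at 0.00 in MZ and 0.81 in HZ, and so did Igf1 at −0.19 in MZ and 0.43 in HZ.

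Platelet and red cell genes differed in opposite directions. Of 15 measured genes of megakaryocytes and platelets, 8 were at least 1 higher in MZ (0.907% of all genes) and 0 at least 1 lower (0.204% of all genes), with a median of 1.15. The list's median value was 1.15 in MZ and 0.41 in HZ. The study's tables name 4 of the 15, and without them 4 of 11 were at least 1 higher and the median was 0.28. Mmrn1, a protein of platelet granules, lay at 2.67 in MZ and 0.41 in HZ (2.26). Tubb1, the beta tubulin of platelets, lay at 2.37 in MZ and 0.33 in HZ (2.04), and Pf4, a platelet chemokine, at 2.51 in MZ and 1.30 in HZ (1.21). Itga2b, the integrin chain of the fibrinogen receptor, lay at 1.15 in MZ and 0.00 in HZ. MZ was the highest of the 5 arrays for these genes, and HZ came next for Mmrn1, Tubb1 and Pf4. Itgb3, which pairs with Itga2b and is also made by osteoclasts, lay at 0.50 in MZ and 0.77 in HZ. Gp5, Ppbp and P2ry12 differed by 0.16 at most in the mean of their probe sets, though P2ry12 differed by 0.47 on 1 probe set.

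Of 22 erythroid genes all 22 were lower in MZ by any amount, against 5676 of all 14217 genes. By at least 0.5, 14 were lower (1.98% of all genes), and by at least 1, 3 were (0.204% of all genes), with a median of −0.59. Car1, the carbonic anhydrase of red cells, differed by −1.40 and Klf1, the transcription factor of red cell precursors, by −1.20, with Klf1 at 1.45 in MZ and 2.65 in HZ. Slc4a1, the anion exchanger of the red cell membrane, had 2 probe sets that differed by −1.17 and −0.53. Hemgn lay at 1.48 in MZ and 2.33 in HZ, Ahsp, which stabilizes free globin, at 0.89 in MZ and 1.74 in HZ, and Nfe2, a regulator that red cell and platelet lineages share, at 1.27 in MZ and 1.88 in HZ. HZ was the highest array for each of these. The globin Hbb lay at 0.01 in MZ and 0.27 in HZ. The study's tables name 4 of the 22, and without them 1 of 18 was at least 1 lower and the median was −0.56.

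The promoters of Klf1, at chr19:40158602-40158901 (minus strand), and Itga2b, at chr10:87925784-87926083 (minus strand), are shown for the red cell and platelet lineages. Capitals mark TGATAA, a core bound by GATA factors, on either strand.
Klf1: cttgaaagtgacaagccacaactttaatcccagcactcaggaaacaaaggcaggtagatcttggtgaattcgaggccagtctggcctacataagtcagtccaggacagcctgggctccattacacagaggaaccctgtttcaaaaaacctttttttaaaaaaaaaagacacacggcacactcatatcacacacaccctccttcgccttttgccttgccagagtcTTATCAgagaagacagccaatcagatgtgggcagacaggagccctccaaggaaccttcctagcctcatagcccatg
Itga2b: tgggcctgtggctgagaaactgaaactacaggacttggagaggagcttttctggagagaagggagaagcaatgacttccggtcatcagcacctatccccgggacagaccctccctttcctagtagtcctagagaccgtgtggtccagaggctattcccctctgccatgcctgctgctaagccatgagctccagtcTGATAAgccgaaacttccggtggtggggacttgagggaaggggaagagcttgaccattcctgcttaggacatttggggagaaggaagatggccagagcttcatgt
TGATAA begins at −26 in Klf1, on the opposite strand, and at −55 in Itga2b, and it is in 9.03% of promoters. It stands in the promoter of a gene lower in MZ and in that of a gene higher in MZ, and no printed motif overlaps another. Among the printed promoters, TGATAA also begins at −205 in Car9 and TGTGGT at −113 in Itga2b, in lower case there.

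Lymphocyte genes ran with the erythroid ones. Of 19 genes of B and T lymphocytes, 18 were lower in MZ by any amount, against 5676 of all 14217 genes. By at least 0.5, 8 were lower (1.98% of all genes), and by at least 1, 2 were (0.204% of all genes). The median was −0.39, and the median value was 0.72 in MZ and 1.01 in HZ. The study's tables name 2 of the 19, Cd3g and Iglc1. Without them 1 of 17 was at least 1 lower and the median was −0.34. Cd3g, a chain of the T cell receptor complex, lay at 1.34 in MZ and 2.45 in HZ (−1.12). Jchain, which joins secreted antibodies, had probe sets that differed by −1.35 and −0.76, and Vpreb3, of B cell precursors, lay at 1.02 in MZ and 1.80 in HZ. Of the 3 probe sets past 2 in this direction, none has a single gene in the platform annotation. The study's table of transcripts pairs 1 of them with Igha, the constant region of antibody class A, together with a second symbol, and it lay at −0.33 in MZ and 1.95 in HZ, with 1.26 in PZ. A probe set named Tcrb there, the T cell receptor beta chain, lay at 0.08 in MZ and 1.82 in HZ. Cd4, Cd8a and Cd22 differed by 0.15 at most.

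Among named genes the largest negative difference was that of Bcl11a, a repressor active in B cell and red cell precursors, at 1.02 in MZ and 2.92 in HZ (−1.89), with −0.78 on its other probe set. Myb, a transcription factor of blood progenitors, lay at 1.35 in MZ and 2.54 in HZ. It was the only 1 of 13 progenitor genes at least 1 lower (median −0.22), and 3 were higher in MZ, among them Meis1 at 0.00 in MZ and −0.99 in HZ. The study's tables name Myb and Tal1, and without them 0 of 11 were at least 1 lower and the median was −0.16. Stfa2l2, a stefin, lay at 0.43 in MZ and 2.28 in HZ, the mast cell protease Mcpt1 at 0.00 in MZ and 1.66 in HZ, and the mast cell chymase Cma1 at 0.07 in MZ and 1.35 in HZ. Of 10 mast cell and eosinophil genes Cma1 was the only 1 at least 1 lower (median −0.16), with Tpsb2 at 0.00 in MZ and −0.10 in HZ. Vav1, a signalling protein of blood cells, lay at 0.39 in MZ and 1.47 in HZ and was the only 1 of 18 pan-leukocyte genes at least 1 lower (median −0.33). Over all genes 0.204% were at least 1 lower. Several of the largest negative values rest on 1 of several probe sets. Sorl1 differed by −1.68 on 1 probe set and by −0.59 in the mean, the repressor subunit Sin3a by −1.50 and −0.48, the histone methyltransferase Ezh2 by −1.41 and −0.64, and Rif1 by −1.33 and −0.48.

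**Figure D3:**
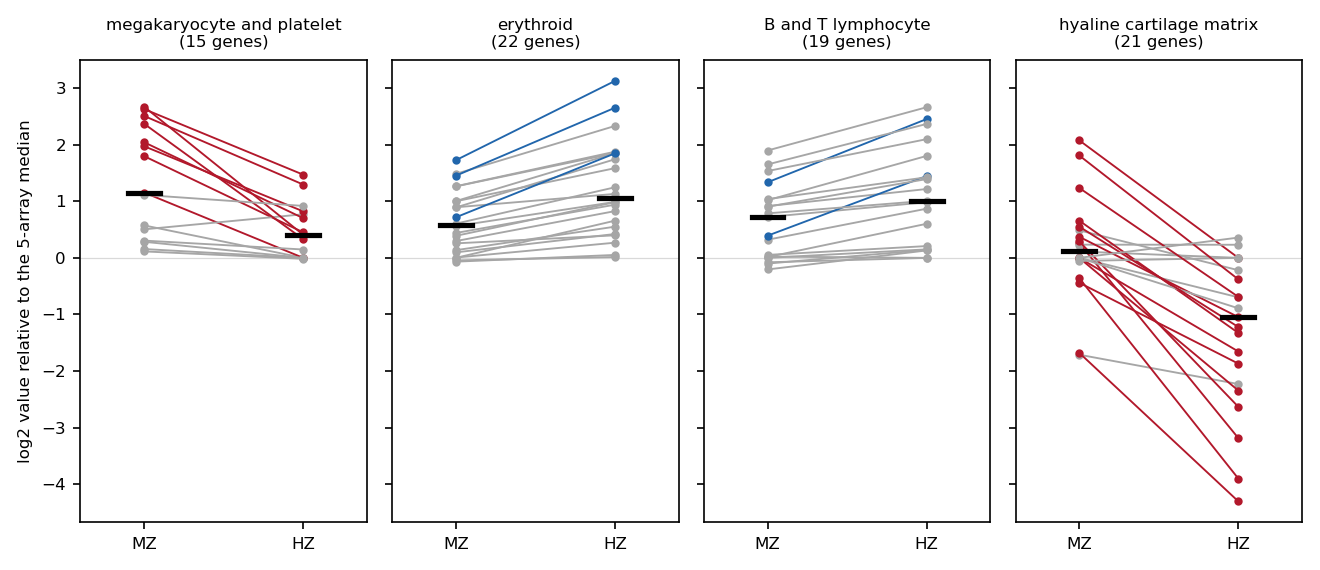
Log2 values relative to the 5-array median (vertical) in MZ and HZ of the genes of 4 lists, with 1 line per gene and a thick bar at the list median, red where MZ is at least 1 higher and blue where it is at least 1 lower. Platelet and hyaline matrix lines run down towards HZ, with medians of 1.15 and 0.41 for platelets in MZ and HZ, and all 22 erythroid lines run up.

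Genes of other cell types thus differed between the captures, and fewer cells of a type and less RNA per cell cannot be told apart in pooled tissue. Beside the hyaline matrix list, erythroid genes had a median value of 0.58 in MZ and 1.06 in HZ and pan-leukocyte genes 0.83 in MZ and 1.20 in HZ, and the part of these cells in the matrix differences was not tested. Medians of some other cell type lists lay close to that of all genes, 0.01. They were −0.08 for 18 macrophage genes, 0.14 for 20 endothelial genes, −0.12 for 12 smooth muscle and pericyte genes and 0.01 for 9 adipocyte genes. Of these genes 0 were at least 1 apart, near the share over all genes (0.907% at least 1 higher and 0.204% at least 1 lower). Col1a1, the main collagen of bone, lay at 0.07 in MZ and 0.09 in HZ.

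Cycling genes were slightly lower in MZ. Of 34 cell cycle genes 31 were lower by any amount, against 5676 of all 14217 genes. By at least 0.5, 7 were lower (1.98% of all genes), and by at least 1, 0 were (0.204% of all genes), with a median of −0.29. Ccne1, a cyclin of entry into DNA synthesis, lay at 0.35 in MZ and 1.06 in HZ (−0.71), and the helicase subunits Mcm5 (0.00 in MZ and 0.57 in HZ) and Mcm6 (0.09 in MZ and 0.66 in HZ) each differed by −0.57. Cdk1, the kinase of mitosis, lay at 0.00 in MZ and 0.04 in HZ. Erythroid and lymphocyte lists were lower in MZ as well, and their part in the cycling genes was not tested.

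**Figure D4:**
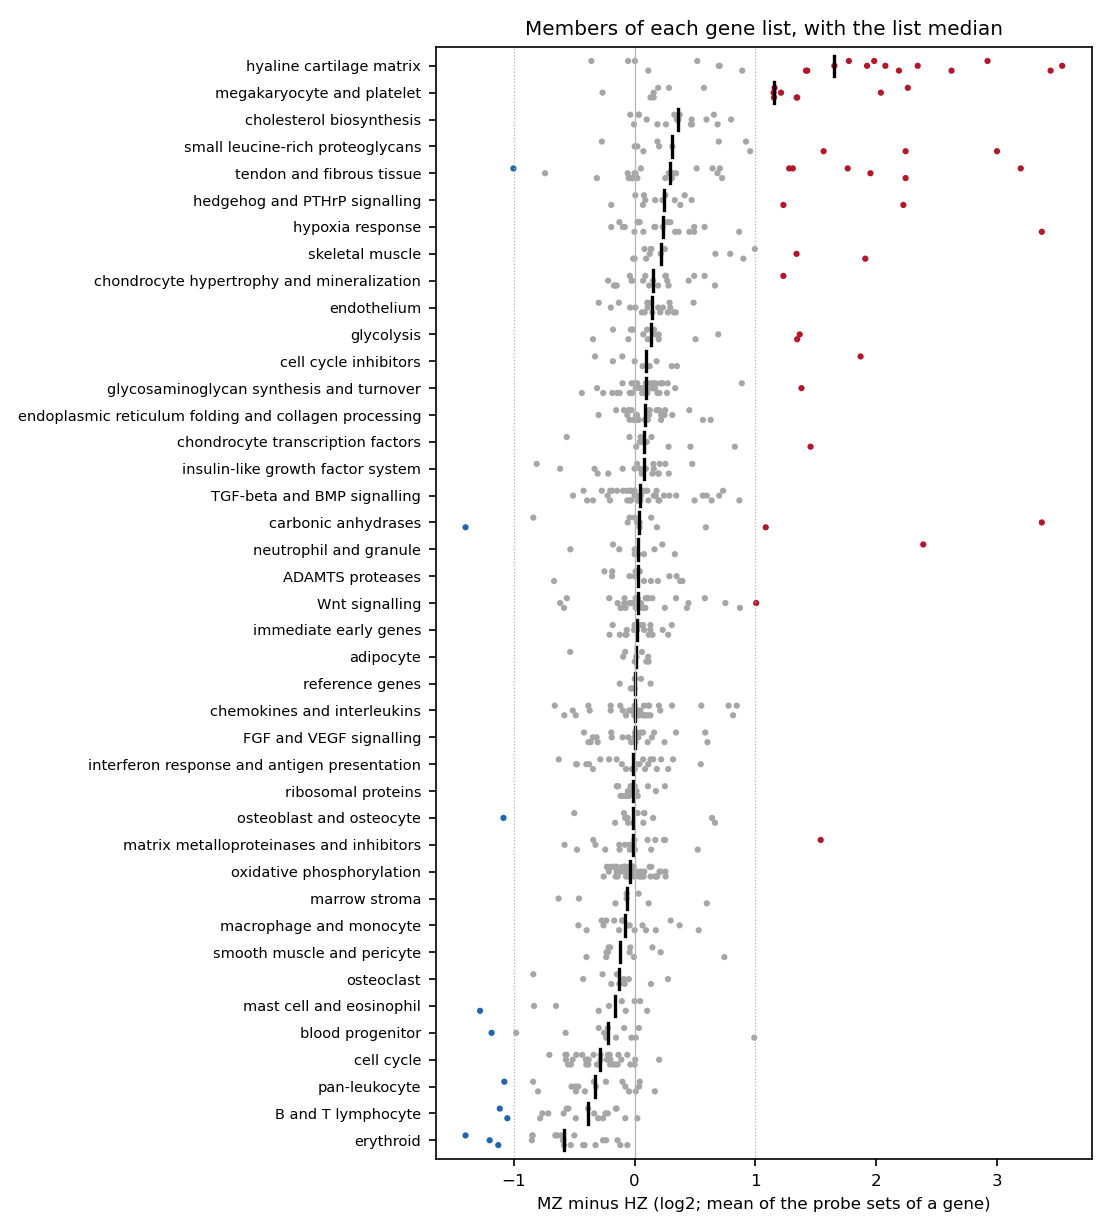
MZ minus HZ difference (log2, horizontal, mean of the probe sets of a gene) of the members of each of 41 gene lists, with 1 point per gene, a black bar at the list median and dotted lines at differences of 1 either way. Medians run from 1.66 for hyaline cartilage matrix and 1.15 for megakaryocyte and platelet genes at the top to −0.59 for erythroid genes at the bottom, and all other lists centre within 0.5 of 0.

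The remaining genes at least 2 higher in MZ were of mixed kinds. Chrdl2, an inhibitor of bone morphogenetic proteins, lay at 0.00 in MZ and −2.57 in HZ, Tnn, tenascin W, at 0.00 in MZ and −2.78 in HZ, and C1qtnf3, a secreted cartilage growth factor, at 0.00 in MZ and −3.15 in HZ. Snorc, a cartilage proteoglycan, lay at 1.81 in MZ and −0.38 in HZ, and Col8a2, a short-chain collagen, at −1.93 in MZ and −4.00 in HZ. Hils1 (3.39), Fam180a (3.29), LOC102553043 (2.84), Cmtm5 (2.81), Capn6 (2.75), Tnnt3 (2.68), Zfp185 (2.66), Moxd1 (2.61), Art3 (2.24), Anxa8 (2.12) and Kctd4 (2.06) completed the named genes together with Lims2, Smim5 and Slfn4. The limit of 2 cut through a run of close values. Lims2 (2.03), Smim5 (2.02) and Slfn4 (2.01) lay just inside it, and the Prelp-like probe set (1.99), Col9a1 (1.99) and an unnamed probe set (1.98) just outside. On the other side Igha lay inside at −2.28 and Bcl11a and Stfa2l2 outside at −1.89 and −1.86.

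At a difference of 1, agreement in sign between probe sets of a gene was similar in both directions, but agreement past 1 was rarer for genes lower in MZ. Of the other probe sets, 50 of 78 had the same sign for genes higher in MZ and 48 of 72 for genes lower. At a difference of 2 agreement could be counted only for genes higher in MZ, since 0 named genes were at least 2 lower. Of the 38 named genes past 2 in MZ, 6 had several probe sets, and of their 7 other probe sets 5 were higher in MZ by at least 0.5, with a median of 1.66. Among 167 genes at least 1 higher by some probe set, 48 had several, and 17 of their 78 other probe sets were at least 0.5 higher, with a median of 0.09. Of these 78, 9 were at least 1 higher, and for 7 of the 48 genes all probe sets were. Among 63 genes at least 1 lower, 37 had several, and 13 of their 72 other probe sets were at least 0.5 lower, with a median of −0.07 and 1 at least 1 lower. For 0 of the 37 genes were all probe sets at least 1 lower.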

How the data were processed

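Laser-captured cells of 5 groups were measured on 1 Affymetrix rat array each, and MZ was compared with HZ. MAS5 and RMA are named in the submitters' processing notes. The authors deposited log2 values after quantile normalization, less each probe set's median over the arrays. The build of the genome is not given in the sources. Besides 57 controls, which were left out, 31042 probe sets were used without a filter, since the values hold no level. Of these, 20826 carry 1 symbol, 436 several, and 9780 are not listed in the platform annotation.

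Differences were computed in Python 3.11.15 (pandas 2.3.3, numpy 2.4.6) and drawn in matplotlib 3.10.9. Counts of probe sets were made at 2, the limit in the study's methods, and genes (mean of probe sets) at 1 and 0.5. Genes named are the 15 with the largest difference each way, members of 41 gene lists, those the study names for MZ and HZ and, chosen after their values were seen, the others past 2 and RatNP-3b. The members and lists were chosen with earlier results of these data known. Functions were tested on simulated data. Alternatives were other size thresholds, array centring, a shift by hybridization controls and other choices of probe set. A further one was lists without the genes the study's tables name for MZ, HZ or differences between MCC zones.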

Additional observations from a re-analysis of the deposited data

How the results depend on the processing

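Each group has 1 array, so no array could be left out. No paired analysis was possible because each group has 1 array and no test was run. Centring the arrays on their medians, shifting them by the hybridization controls and leaving out probe sets shared between transcripts changed neither count by over 1.5 times (46 and 3 as measured) and no list median by more than the spread between probe sets. The numbers higher and lower in MZ were 107 and 21 at a difference of 1.4 and 247 and 103 at 1, and with 1 value per gene 0 were at least 2 lower. That 0 was fixed in advance, since none of the 3 probe sets at least 2 lower carries a gene symbol. With the probe set of largest SD for each gene, the medians of chondrocyte transcription factors and marrow stroma moved to 0.23 and −0.26. An alternative chosen after seeing the data left out genes the study's tables name for MZ, HZ or differences between MCC zones. Genes named only elsewhere in those tables were kept. It moved the medians of hyaline cartilage matrix, megakaryocyte and platelet, and tendon and fibrous tissue lists to 1.16, 0.28 and 0.051. The cause was not tested. No result reversed. The mean of all probe sets moved 8 of the 30 genes with the largest differences by more than that spread, all 8 among those lower in MZ. Those of the 30 that were higher in MZ had 1 probe set each, so the mean could not move them. This check therefore does not compare the 2 directions. Without levels, a difference between arrays near background cannot be told from one between bright signals.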

Other observations

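Cholesterol biosynthesis genes were slightly higher in MZ as a group. Of 18 measured members 16 were higher by any amount (53.2% of all genes). By at least 0.5, 4 were higher (3.32% of all genes), and by at least 1, 0 were (0.907% of all genes), with a median of 0.36. Sqle, which oxidizes squalene, lay at 0.00 in MZ and −0.80 in HZ, and Lss, the next enzyme, at 0.01 in MZ and −0.68 in HZ. Carbonic anhydrases were split by member, with Car8 at 0.98 in MZ and −0.11 in HZ beside the values of Car9 and Car1 given above.

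Fast skeletal muscle genes were higher in MZ for 2 of 15 members by at least 1 (0.907% of all genes). Tnni2, the fast troponin I, lay at 1.85 in MZ and −0.06 in HZ, with 4.89 in FCC, whereas Tnnt3 rested on 1 of 2 probe sets that differed by 2.68 and 0.00. Mmp12, an elastase of macrophages, lay at 1.54 in MZ and 0.00 in HZ and was the only 1 of 22 metalloproteinase and inhibitor genes at least 1 apart. Among 37 Wnt genes Wnt4 was at least 1 apart in the mean over probe sets, at 1.01 in MZ and 0.00 in HZ. In the mean of their probe sets, 0 of 49 TGF-beta and BMP genes, 27 FGF and VEGF genes, 41 chemokines and interleukins, 30 ribosomal proteins and 7 reference genes were at least 1 apart. Single probe sets of some genes of these kinds did pass 1. Fstl3 differed by 1.23, Fgfr3 by 1.20, Fgf1 by −1.01 and Cxcl12, a chemokine the study names for the deep zones, by −1.24. Over all genes 0.907% were at least 1 higher and 0.204% at least 1 lower, so these counts of 0 lay near that share.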
